A study of Mus musculus with 4 samples.

Results

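The 5 genes Cybb, Cyba, Ncf1, Ncf4 and Rac2, which encode subunits of the phagocyte NADPH oxidase, were followed through single-cell RNA-seq of myeloid-derived suppressor cells (MDSCs). They were taken by symbol from the gene list of the deposited count matrices, where all 5 were found among 32285 genes. MDSCs had been grown for 4 days from bone marrow of C57BL/6 mice aged 6 to 10 weeks in 40 ng/mL recombinant mouse GM-CSF and 40 ng/mL recombinant mouse IL-6, and live CD11b+ cells were sorted and pooled for 10X Genomics libraries. There were 4 groups with 1 library each: wild-type cells with vehicle (WT+PBS), wild-type cells with 10 µM isoproterenol, a pan-β-adrenergic agonist, added fresh each day (WT+ISO), and cells of another genotype grown without and with isoproterenol. The libraries of the other genotype enter the description of the clusters, where all 4 libraries show how far a level holds, and the fixed cluster weights used below. Their levels enter no comparison between groups. All groups shared the cytokines, the strain background and the sort. The number of mice behind a library was not given in the sources used here. Groups followed the sample titles, since the treatment field of the labels names isoproterenol for all 4 libraries.

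The oxidase passes electrons from NADPH across a membrane to oxygen and so makes superoxide, which phagocytes use against microbes and which MDSCs use to suppress T cells. Its catalytic core in the membrane is Cybb (gp91phox) bound to Cyba (p22phox). On activation, the cytosolic subunits Ncf1 (p47phox, the organizer) and Ncf4 (p40phox, which binds a membrane lipid) move to this core together with a Rac GTPase, which in neutrophils is mainly Rac2. Neutrophil precursors fill azurophil granules first (Mpo, Elane), then specific granules (Ltf, Camp), and mature cells express Retnlg and Mmp9.

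The genes lie apart in the genome. In GRCm38.p6, the RefSeq annotation of the mm10 build named in the submitters' processing notes, Cybb spans chrX:9435252-9487766, Cyba chr8:122424771-122432940 and Ncf1 chr5:134220053-134229628. Ncf4 spans chr15:78244164-78262582 and Rac2 chr15:78559169-78572783. RefSeq promoter sequences were matched for 3 of the 5 members. They are shown for the 250 bases before the start given in the RefSeq promoter table, which for Cybb lies inside the gene span above, because Cybb and Ncf1 were both lower in mature than in specific granule-like neutrophils while Cyba was not, as the levels given further on show. All 3 genes are on the minus strand and are printed 5′ to 3′ in the direction of transcription. Capitals mark the letters GGAA (the core read by ETS factors such as PU.1) or CCAAT on either strand, where TTCC and ATTGG are the same letters on the opposite strand.
Cybb, chrX:9469325-9469574: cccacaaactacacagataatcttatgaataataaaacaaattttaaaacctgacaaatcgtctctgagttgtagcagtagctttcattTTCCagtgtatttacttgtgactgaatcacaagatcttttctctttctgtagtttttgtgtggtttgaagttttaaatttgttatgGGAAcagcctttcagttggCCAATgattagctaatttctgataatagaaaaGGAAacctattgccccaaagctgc
Cyba, chr8:122432941-122433190: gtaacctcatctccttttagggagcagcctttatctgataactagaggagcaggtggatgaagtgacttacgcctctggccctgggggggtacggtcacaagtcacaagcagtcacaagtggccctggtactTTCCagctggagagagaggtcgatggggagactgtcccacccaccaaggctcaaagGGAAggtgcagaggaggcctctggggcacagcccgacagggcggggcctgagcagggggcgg
Ncf1, chr5:134229626-134229875: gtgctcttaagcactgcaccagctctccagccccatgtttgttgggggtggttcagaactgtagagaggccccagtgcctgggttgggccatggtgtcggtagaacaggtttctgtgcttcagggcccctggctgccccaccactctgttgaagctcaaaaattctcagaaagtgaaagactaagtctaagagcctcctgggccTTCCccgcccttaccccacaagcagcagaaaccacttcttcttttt
GGAA occurred 3 times before Cybb, 2 times before Cyba and 1 time before Ncf1, and 93.4% of all 32851 promoters of this length held it. CCAAT occurred once, before Cybb, starting 56 bases before the start, and 33.8% of all promoters held it. The letters TGACG, part of the site read by cAMP-responsive factors, were searched too (both strands) and occurred in none of the 3 sequences but in 17.8% of all promoters.

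The libraries held 9525 cell barcodes, none shared between libraries, of which 9303 were kept (200 genes or more detected, no more than 10% of UMIs, the unique transcript counts, from mitochondria). The 4 libraries held 2039 to 2790 kept cells, 19357824 to 29400468 UMIs and a median of 7484 to 10252 UMIs per cell, so that even the least abundant member had 4857 or more UMIs in each library. Itgam, which encodes the sorted marker CD11b, was seen in 85.2% to 88.4% of the cells of each library. Levels are given as CPM, the UMIs of a gene for each 1000000 UMIs of the cells compared. With 1 library a group no difference between groups has a replicate check, and every interval below covers counting error only.

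The kept cells formed 6 clusters, made without the members and the related oxidase genes, and 5 were named from marker genes. Azurophil progenitor-like cells (1581 cells; Mpo, Elane) had Elane at 4047 CPM, specific granule-like immature neutrophils (1988 cells) had Ltf at 7983 CPM, and mature neutrophil-like cells (2831 cells) had Retnlg and Mmp9 among their leading genes. The azurophil progenitor-like cluster was mixed, since a finer clustering placed 43.8% of its cells in an azurophil progenitor-like group and 44.0% in a specific granule-like one, and its Camp (4533 CPM) exceeded its Elane. The macrophage-like cluster (1780 cells, with Mrc1 and C1qb) was mixed too. The finer clustering placed 53.9% of its cells in a macrophage-like group and 45.1% in a monocyte-like one. The mature neutrophil-like cluster was also mixed, with 35.9% of its cells in a finer group rich in Retnlg (2556 CPM). Other finer groups named mature took 27.8% and 24.9%, with Retnlg at 31.9 and 59.8 CPM, below the 356 CPM of specific granule-like cells. Cybb was at 444 CPM in the Retnlg-rich group and at 395 and 440 in the others. Migratory dendritic cell-like cells (103 cells, with Ccr7 and Ccl22) reached 30 cells in 2 libraries only. A cluster of 1020 RNA-rich cells led by Kcnq5 and Serpina3g met no marker list and stayed unnamed.

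RNA of the catalytic subunit Cybb was highest in the specific granule-like cells. There, Cybb stood at 1585 CPM in WT+PBS, 1539 in WT+ISO, and 1652 and 1712 in the other genotype without and with isoproterenol, a mean of 1622 ± 75.8 (SD, n = 4 libraries). In azurophil progenitor-like cells it stood at 718, 765, 695 and 938 CPM in the same order (mean 779 ± 110, SD, n = 4). The ranges of these clusters did not overlap with each other or with any cluster below them. Macrophage-like cells (360 to 471 CPM), mature neutrophil-like cells (361 to 429) and the unnamed cluster (370 to 436) did not differ beyond the spread between libraries. Migratory dendritic cell-like cells had the least, 155 CPM in WT+PBS and 45.3 in the other library with at least 30 of them. The specific granule-like cells gave 30.6% of all Cybb UMIs with 12.3% of all UMIs of any gene, and the azurophil progenitor-like cells 31.98% with 27.2%.

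**Figure D1:**
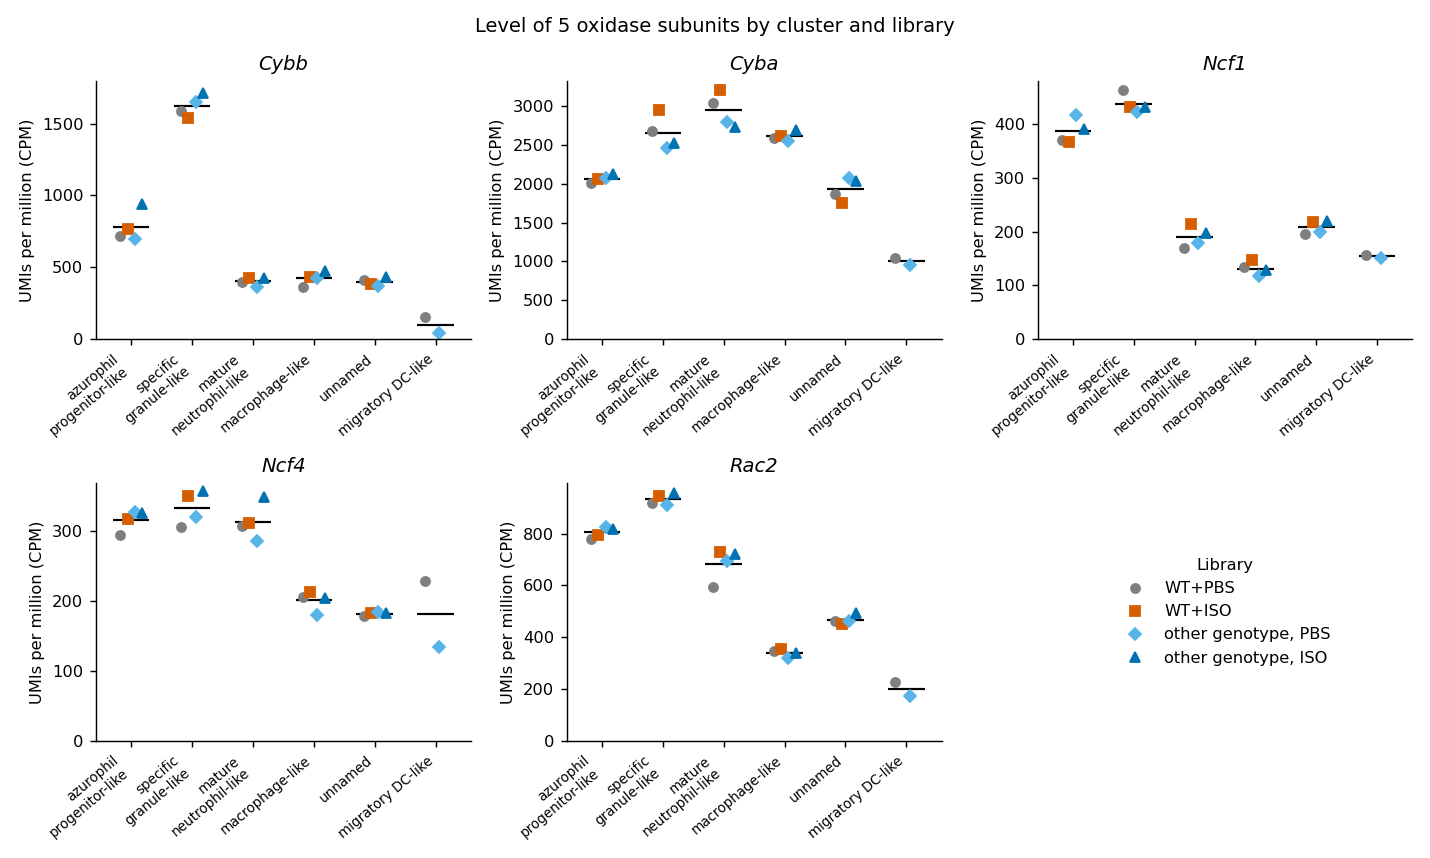
CPM (UMIs of the gene for each 1000000 UMIs of the cluster in that library, axis from 0) of Cybb, Cyba, Ncf1, Ncf4 and Rac2 in 6 clusters; each point is 1 library (clusters with at least 30 cells) and each line the mean over libraries. Cybb peaks in specific granule-like cells in all 4 libraries (1539 to 1712 CPM), while Ncf4 differs little among the 3 neutrophil clusters.

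Cyba, the partner that stabilizes Cybb, had another order. It was at 2727 to 3207 CPM in mature neutrophil-like cells, 2463 to 2948 in specific granule-like cells and 2550 to 2687 in macrophage-like cells. The specific granule-like range overlapped both others, and the mature neutrophil-like range lay above the macrophage-like one. Azurophil progenitor-like cells (2006 to 2127 CPM) and the unnamed cluster (1749 to 2074) lay below these 3 and overlapped each other. Migratory dendritic cell-like cells were lowest here too (959 and 1043 CPM). Mean Cyba in macrophage-like cells was 88.7% of that in mature neutrophil-like cells. Mean Cybb in mature neutrophil-like and macrophage-like cells was 25.0% and 26.1% of its level in specific granule-like cells.

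The cytosolic subunits divided. Ncf1, the organizer, was highest in specific granule-like cells (462 CPM in WT+PBS, 430 in WT+ISO, 422 and 431 in the other libraries) and next in azurophil progenitor-like cells (367 to 416). It was at 170 to 214 CPM in mature neutrophil-like cells and lowest in macrophage-like cells (117 to 146), with no overlap between either of these and the early neutrophil clusters. Ncf4 was alike in specific granule-like (305 to 357 CPM), azurophil progenitor-like (294 to 327) and mature neutrophil-like cells (285 to 348), whose ranges overlapped, and was lower in macrophage-like cells (180 to 213).

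The GTPase Rac2 had 6 levels whose ranges did not overlap, in descending order those of specific granule-like cells (911 to 957 CPM), azurophil progenitor-like cells (779 to 827), mature neutrophil-like cells (594 to 727), the unnamed cluster (453 to 492), macrophage-like cells (319 to 354) and migratory dendritic cell-like cells (172 and 229). The Rac2 order among the neutrophil clusters depended on the clustering. Rac2 in mature neutrophil-like over azurophil progenitor-like cells was at -0.24 (log2) here and kept its sign in the finer clustering. It was at 0.66 with no filter on cells, 0.53 with a stricter filter, 0.41 with 4000 variable genes and 0.59 with 30 neighbours. With no filter, Rac2 was at 923 CPM in the cluster named mature and 851 in the one named specific granule-like. Rac1, the GTPase that macrophages also use for this oxidase, ran the other way from Rac2. It had 362 to 408 CPM in macrophage-like and 248 to 267 in specific granule-like cells. Across the 22 points of cluster by library, the Pearson correlation of log2(CPM + 1) was -0.86 between Rac2 and Rac1 and -0.95 between Ncf1 and Rac1. These points share libraries and depth, so the correlations are descriptions.

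Ratios taken within each library gave the size of these steps, with genes counted as past 1.5-fold only where they were so in each of the 4 libraries. From azurophil progenitor-like to specific granule-like cells, Cybb was higher by 1.07 ± 0.17 (log2, SD, n = 4), and it was the 1 member of 5 past 1.5-fold, where 11.5% of 9064 genes were. This step blends the groups mixed in the azurophil progenitor-like cluster, which had Cybb at 350 to 533 and at 1173 to 1264 CPM in the finer clustering. From specific granule-like to mature neutrophil-like cells, Cybb was lower (-2.01 ± 0.14, a 4.01-fold difference) and so was Ncf1 (-1.20 ± 0.19). These were 2 of 5 members, where 4.47% of 8139 genes were past 1.5-fold lower in that step. The median gene itself differed between these clusters, by -0.42 in the first step and by 0.49 in the second. Against the median gene, the Cybb differences were 1.48 and -2.48, and that of Ncf1 in the second step was -1.68. Cyba turned from 0.15 to -0.33 in the second step. The second step depended on the clustering. With 4000 variable genes, Cybb was at 1100 CPM in the cluster named mature and at 1515 and 1189 in the 2 named specific granule-like. In the same clusters Ncf1 was at 362 CPM against 428 and 423. With no filter on cells Ncf1 was at 392 CPM against 402. With 30 neighbours Cybb was at 507 CPM against 1643 and 1169.

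Between mature neutrophil-like and azurophil progenitor-like cells, Cybb (-0.94 ± 0.14) and Ncf1 (-1.03 ± 0.19) were lower, 2 of 5 members where 21.7% of 9387 genes were, and Cyba was higher by 0.51 ± 0.13. The direction for Cybb turned in each of 5 other clusterings, with values from 0.04 to 2.0. In 3 of these (no filter on cells, a stricter filter and more variable genes) the cluster named mature held Ltf at 6548, 4639 and 5743 CPM against 645 in the main clustering. In all 5 the cluster named azurophil held Ltf at 59.5 to 189 CPM against 1409. These Ltf levels moved with the ratio, and their part in it was not tested. In 5 of 6 clusterings the cluster highest in Cybb, and in Ncf1, was a specific granule-like one, and in the other (no filter on cells) it was an unnamed cluster with Ltf at 5433 CPM. In that clustering Cybb was higher in the cluster named mature than in the one named specific granule-like (0.33). From mature neutrophil-like to macrophage-like cells, Rac2 was lower by 1.5-fold or more in each library (-1.01 ± 0.16), 1 of 5 members where 7.16% of 9686 genes were, Ncf4 was at -0.64 ± 0.10 and Cybb at 0.06 ± 0.16. That Cybb ratio was below 0 in each of the 5 other clusterings, from -1.60 to -0.08.

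A finer clustering into 14 groups narrowed where Cybb was high. The purest azurophil progenitor-like group (693 cells, Elane at 6918 CPM) had Cybb at 350 to 533 CPM. A group with Ltf at 3213 CPM had 1173 to 1264. The 2 groups richest in Ltf (8374 and 10100 CPM) had 1595 to 1731 and 1589 to 1835. The Retnlg-rich group (1056 cells, Retnlg at 2556 CPM) had 399 to 481. Cybb in the first and in the last of these groups overlapped, with the higher groups between them.

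**Figure D2:**
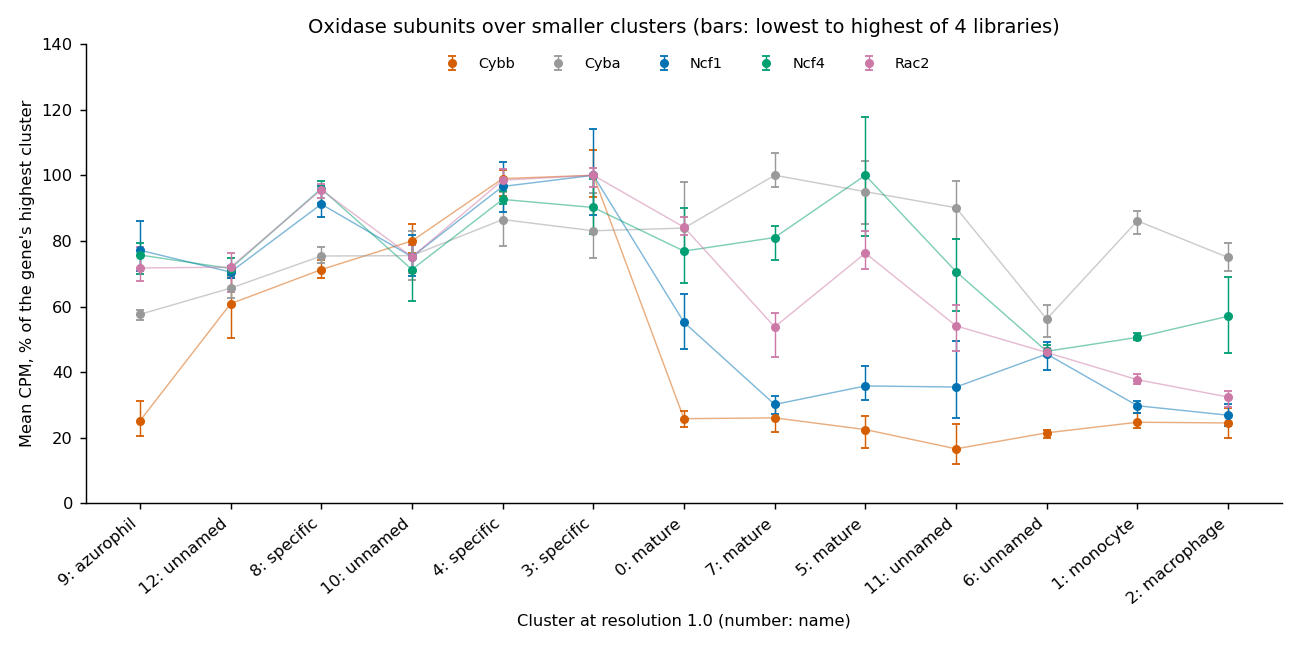
Mean CPM over 4 libraries of each gene in 13 smaller clusters (resolution 1.0; the migratory dendritic cell-like cluster is left out), as % of that gene's highest cluster, with bars from the lowest to the highest library; the left side runs from the azurophil to the mature clusters, with the unnamed clusters 12 and 10 placed among them, and the unnamed clusters 11 and 6 and the monocyte-like and macrophage-like clusters are on the right. Cybb is higher in clusters 12 to 3 than in any other, and Ncf1 is lower from cluster 0 on.

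Across the same groups the other subunits had other profiles. Ncf1 was at 334 to 405 CPM in the purest azurophil progenitor-like group, 414 to 538 in the group richest in Ltf and 222 to 301 in the Retnlg-rich group. Rac2 was at 677 to 778, 961 to 1020 and 816 to 868 CPM in these 3 groups.

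To count the cells in which all 5 RNAs were seen at equal depth, each cell was thinned to 2000 UMIs. This left out 710 shallower cells, 574 of them mature neutrophil-like. The share with all 5 depends on the shares of single subunits given below and was not compared with their product. All 5 members were then seen in 21.3% of specific granule-like cells (exact binomial 95% interval 19.5% to 23.2%) and 16.5% of azurophil progenitor-like cells (14.7% to 18.4%). By library these shares ran from 18.2% to 23.8% and from 15.1% to 19.6%. The ranges overlapped, with the specific granule-like share the higher in each library. The share was 4.92% in mature neutrophil-like, 3.53% in unnamed and 1.86% in macrophage-like cells. No migratory dendritic cell-like cell of 102 had all 5, which allows a share of up to 3.55%. Before thinning, 94.2% of the deeper azurophil progenitor-like cells (median 15760 UMIs) and 68.6% of specific granule-like cells (median 6137.5) had all 5. That order was the reverse of the one at equal depth, and its cause was not tested.

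**Figure D3:**
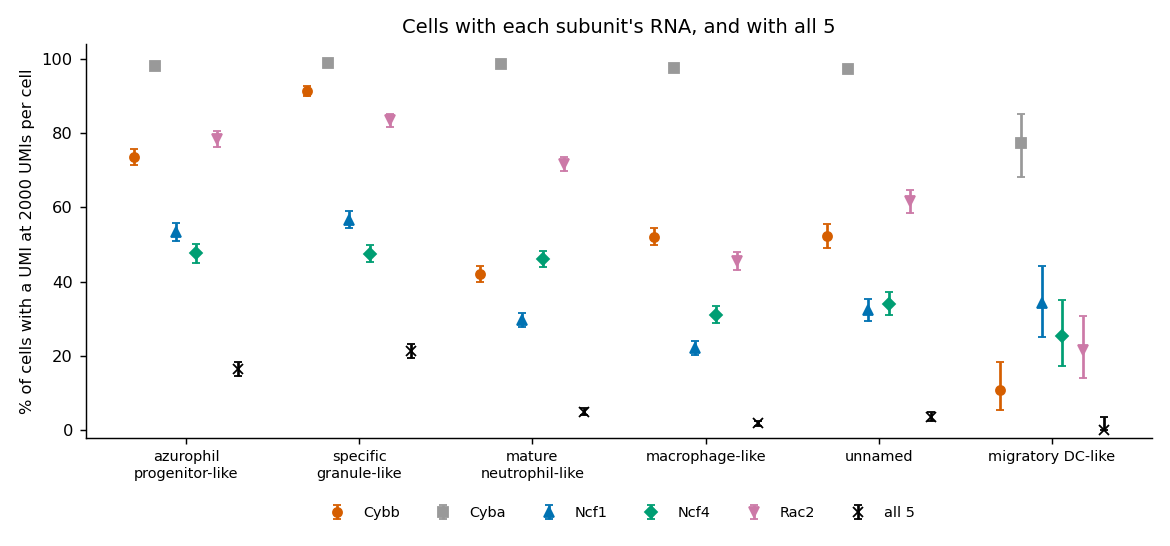
Percent of cells with at least 1 UMI of each subunit, and of all 5, after thinning each cell to 2000 UMIs, by cluster over the 4 libraries; bars are exact binomial 95% intervals, which cover counting error only. Cyba is seen in nearly every cell outside the dendritic cell-like cluster, and Cybb ranges from 10.8% to 91.3%.

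The shares of cells with single subunits followed the levels in part. Cybb was seen in 91.3% of thinned specific granule-like, 73.6% of azurophil progenitor-like, 52.2% of macrophage-like, 42.1% of mature neutrophil-like and 10.8% of migratory dendritic cell-like cells. Cyba was seen in 97.3% to 98.8% of the cells of every cluster but the last (77.5%). As a measure of free RNA in the droplets, Elane was found in 26.3% of macrophage-like cells at 46.4 CPM, against 4047 CPM in azurophil progenitor-like cells. Ltf was at 64.5 CPM in macrophage-like cells. The macrophage gene C1qb was found in 0.212% of mature neutrophil-like cells. In macrophage-like cells it was found in 15.3% (70.5 CPM), so its scarcity elsewhere says little about free RNA. Elane and Ltf in macrophage-like cells were thus at 1.15% and 0.808% of their level in the cluster they mark, while Cybb was at 26.1% of its highest level there.

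Wild-type libraries with and without isoproterenol were compared to see whether levels of these genes moved with the agonist. Over all cells of a library, WT+ISO exceeded WT+PBS for 4 of 5 members by more than counting error (interval above 0), as did 17.5% of 10771 genes, and none of the members reached 1.5-fold. The share of 17.5% covers genes with at least 100 UMIs over both libraries. Each member had 6048 UMIs or more in WT+PBS, and intervals narrow with UMIs, so the shares are not at like depth. Cybb was at 602 CPM in WT+PBS and 692 in WT+ISO (log2 ratio 0.20, interval 0.17 to 0.23). Ncf1 went from 253 to 292 CPM (0.21, 0.16 to 0.26), Rac2 from 582 to 660 (0.18, 0.15 to 0.21) and Ncf4 from 248 to 273 (0.14, 0.09 to 0.19). Cyba was at 2298 and 2289 CPM, with a ratio of -0.01 whose interval spanned 0. The median over the 5 was 0.18, beside -0.02 over 10771 genes, and 6.5% of those genes were past 1.5-fold against 0 of 5 members.

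**Figure D4:**
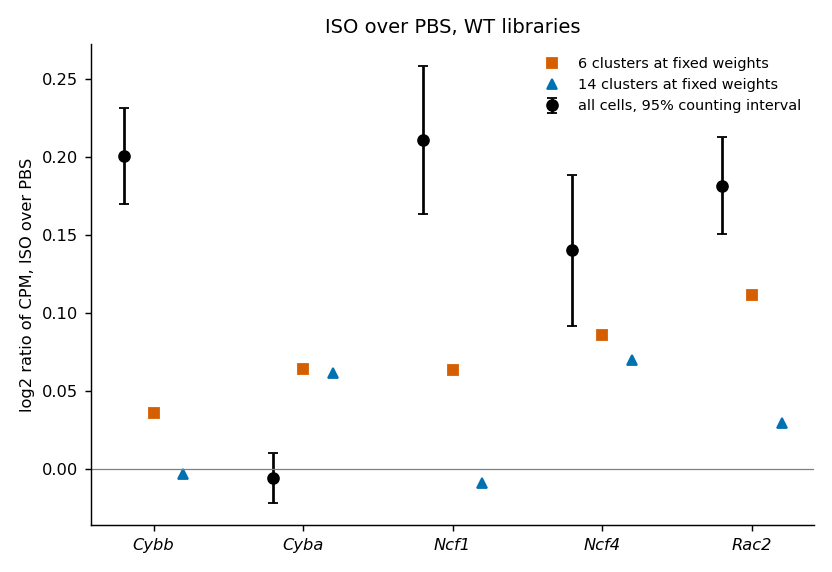
log2 ratio of CPM, ISO over PBS, for each subunit in WT libraries: over all cells with 95% counting intervals (circles), with 6 clusters held at fixed weights (squares) and with 14 clusters held at fixed weights (triangles). The Cybb and Ncf1 ratios fall from 0.20 and 0.21 to about 0 when the mix of 14 clusters is held fixed, and the Rac2 ratio falls from 0.18 to 0.03. Within single finer clusters the ratios went both ways, for Cybb from -0.64 to 0.27.

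The mix of cells in the clusters made here differed between the WT libraries. The paper describes the frequencies of its own 6 clusters as similar between treatment groups. Azurophil progenitor-like cells made up 16.7% of WT+PBS and 26.1% of WT+ISO cells, and specific granule-like cells 19.0% and 24.1%. Macrophage-like cells made up 16.7% and 10.2%, and mature neutrophil-like cells 34.9% and 25.8%. The 6 clusters were then held at the same weights in every library, each cluster's mean share of cells over the 4 libraries. The WT ratios were then 0.04 for Cybb, 0.06 for Cyba, 0.06 for Ncf1, 0.09 for Ncf4 and 0.11 for Rac2. These weights count cells, where the ratios over all cells count UMIs. With equal weight per cell and the mix not fixed, the ratios in the same order were 0.19, 0.03, 0.20, 0.07 and 0.16. With 14 clusters at fixed weights, Cybb and Ncf1 in WT were at -0.003 and -0.01. These values average ratios that went both ways. Over 13 finer clusters Cybb ran from -0.64 to 0.27, with the interval above 0 in 5 and below 0 in 3. Ncf1 ran from -0.23 to 0.49 (1 and 1) and Rac2 from -0.24 to 0.38 (2 and 1). In the finer group with Ltf at 8374 CPM, Cybb was at -0.12 (-0.20 to -0.03) and Ncf1 at -0.23 (-0.39 to -0.06). In the group richest in Ltf (10100 CPM) both intervals spanned 0.

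Within clusters, the ISO ratio of Cybb in WT was above 0 in 3 of 5, with an interval above 0 in 2 and below 0 in 1. In macrophage-like cells it went from 360 to 436 CPM (0.27, 0.18 to 0.37), and in azurophil progenitor-like cells from 718 to 765 (0.09, 0.04 to 0.14). The make-up of the macrophage-like cluster differed between the 2 libraries. The macrophage-like group of the finer clustering made up 8.1% of WT+PBS and 3.5% of WT+ISO cells, and the monocyte-like group 10.8% and 8.3%. In the macrophage-like cluster C1qb was at 48.4 CPM without and 5.78 with isoproterenol. The part of the mix in this C1qb difference was not tested. In the monocyte-like and macrophage-like groups of the finer clustering the Cybb ratio was 0.15 (0.05 to 0.26) and 0.19 (0.03 to 0.35). In the unnamed cluster Cybb went from 413 to 385 CPM (-0.10, -0.19 to -0.02). The purest azurophil progenitor-like group of the finer clustering had Cybb at 418 CPM without and 413 with isoproterenol (-0.02, -0.10 to 0.07). Its granule genes were close too, with Ltf at 172 and 179 CPM and Elane at 6796 and 6694.

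**Figure D5:**
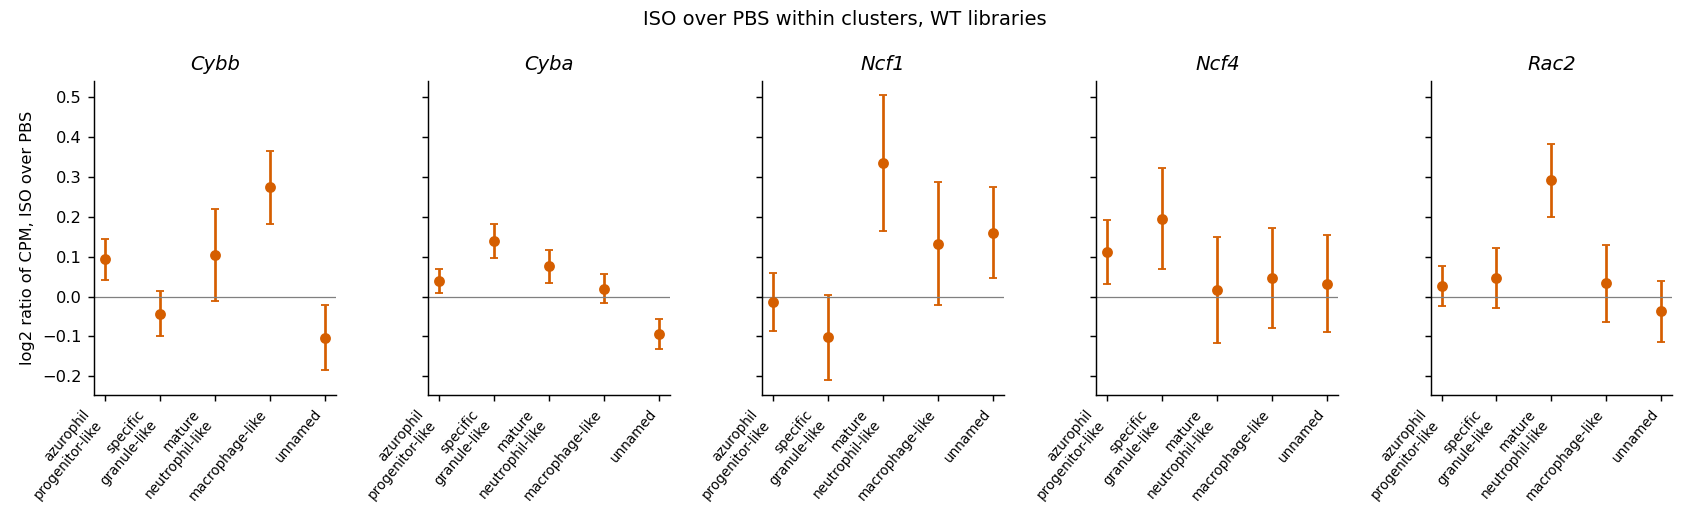
log2 ratio of CPM, ISO over PBS, within each of 5 clusters for each subunit, in WT libraries, with 95% counting intervals. Cybb stands at 0.27 in macrophage-like cells, where the monocyte-like and macrophage-like finer groups gave 0.15 and 0.19. Ncf1 stands at 0.33 in mature neutrophil-like cells, where the finer groups named mature gave 0.04 to 0.18 and an unnamed one 0.49.

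The other subunits differed by cluster. In WT mature neutrophil-like cells, Ncf1 (170 to 214 CPM, 0.33) and Rac2 (594 to 727 CPM, 0.29) were higher with isoproterenol, and their intervals lay above 0. The make-up of this cluster differed too, with Ltf at 349 CPM without and 959 with isoproterenol, and Retnlg at 853 and 1255. In the 3 mature neutrophil-like groups of the finer clustering, Ncf1 was at 0.04 to 0.18 with every interval spanning 0, and Rac2 was at 0.09, -0.14 and 0.38, with only the last interval above 0. Cybb was at 0.27, -0.64 and 0.21 in these groups, each interval off 0. The part of the make-up in the wider clusters' ratios was not tested. Ncf4 was above 0 in 5 of 5 clusters (0.02 to 0.20), with the interval above 0 in 2, and Cyba stayed within -0.09 and 0.14. Over 13 finer clusters Ncf4 ran from -0.44 to 0.35, with the interval above 0 in 3 and below 0 in 1. Cyba ran from -0.17 to 0.25 over these 13, with the interval above 0 in 7 and below 0 in 4.

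Of 36 related genes of the pathway (other subunits, chaperones, other NADPH oxidases, Rac regulators, assembly kinases, NADPH supply and transcription factors), 29 had at least 100 UMIs in the WT libraries. Of these 29, 1 was past 1.5-fold, where 6.5% of 10771 genes were so either way. This was Irf8, lower with isoproterenol in WT, at 26.5 CPM in WT+PBS and 16.7 in WT+ISO. It encodes a factor that favours monocytes over granulocytes. In macrophage-like cells Irf8 was at 43.5 CPM in WT+PBS and 43.4 in WT+ISO (-0.0051, -0.29 to 0.27), while their share of cells differed as given above. Irf8 was highest in migratory dendritic cell-like cells (403 and 520 CPM in the 2 libraries with enough of them). They made up 1.67% of WT+PBS and 0.71% of WT+ISO cells. The part of these shares in the Irf8 ratio was not tested. None of the 29 genes was past 1.5-fold higher, and their median was -0.05. The 3 measured enzymes of NADPH supply were at 0.27 to 0.43 (median 0.30), above 0 as 47.0% of all 10771 genes were. Spi1 (PU.1), the main myeloid factor of these genes, was at 451 to 498 CPM in the 4 libraries, Rap1a at 222 to 233, Hvcn1 (the proton channel that balances the oxidase's charge) at 41.6 to 52.7 and Cybc1 (the chaperone of the core) at 23.8 to 27.6. Rac1 was at -0.12 with isoproterenol in WT.

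Genes whose levels followed each member closely over the 22 points, among 9238 genes, were named by Pearson's r. They were Nhsl2 (r = 0.97), Stxbp2 (0.96) and Mcu (0.95) for Cybb. For Ncf1 they were Sun2 (0.97), Ccdc88c (0.96) and Cebpe (0.96), a granulocyte factor needed for specific granules. For Rac2 they included S100a9 (0.99) and S100a8 (0.98). For Cyba they were Stk10, Aldh3b1 and Gm13986 (0.95 to 0.96), and for Ncf4 Vamp5, Slc40a1 and Slc2a3 (0.94 to 0.96). No gene named here was so for 2 members. Among the members themselves, r was highest between Ncf4 and Rac2 and between Cybb and Rac2 (0.86 each) and lowest between Cyba and Ncf1 (0.14).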

How the data were processed

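The authors deposited 10X Genomics count matrices, 1 per library, of UMI counts per gene and cell. Their processing notes name Cell Ranger 6.0.0, Seurat and mm10, and the file headers name Cell Ranger 7.0.0. Reads were assigned to libraries by multiplexing tags. The counts were not normalized by the authors.

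Cells were kept when 200 genes or more were detected and mitochondria gave no more than 10% of UMIs, then scaled to 10000, log-transformed and clustered (scanpy 1.11.5, leidenalg 0.10.2: 2000 variable genes without the members and related genes, 30 components, 15 neighbours, resolution 0.4, and 1.0 for the finer clusters). A cluster was named where 3 or more markers were in at least 10% of its cells and 1 or more stood among its 10 leading genes. No doublet caller was run. UMIs were summed per library, or per cluster and library, and divided by the total to give CPM. Ratios have exact conditional binomial 95% intervals and levels exact Poisson ones. The ratio code was tested on simulated data. No test across groups was possible with 1 library a group, so genes with at least 100 UMIs were counted past 1.5-fold.

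The members and the lists of related genes and markers were chosen with earlier results of these data known. Named were the 5 members, Rac1, Rap1a, Cybc1, Hvcn1 and Spi1, related genes past 1.5-fold and the 3 genes most like each member (at least 500 UMIs). Some genes that this rule names, and the comparisons with the other genotype, are not reported here. The fixed weights of the 14 clusters, and the alternatives for the steps into and out of the specific granule-like cluster, were added after seeing the data. Promoter motifs were chosen after the sequences were seen.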

Additional observations from a re-analysis of the deposited data

Results flagged for a closer look

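Outside the RNA counts, 1586 UMIs lay on the 8 of 12 listed multiplexing tags that mark no library, 0.00986% of all tag UMIs.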

How the results depend on the processing

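No paired analysis was possible because the groups, 1 library each, share only the replicate number 1. No member passed 1.5-fold between the WT libraries under any alternative run. The median over the 5 members for isoproterenol in WT (0.18) was 0.23 with median-of-ratios size factors, 0.22 with the 20 most abundant genes left out of the totals, 0.0636 with 6 clusters at fixed weights and 0.0293 with 14.

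The median for mature neutrophil-like over azurophil progenitor-like cells (-0.24) was 0.66 with no filter on cells, 0.53 with the stricter filter (1000 genes or more, no more than 5% mitochondrial), 0.41 with 4000 variable genes, 0.40 with 30 neighbours and 0.0429 at resolution 1.0. Under these 5 in turn, Cybb was at 2.0, 1.246, 1.71, 0.38 and 0.0429 against -0.94, and Ncf1 at 0.41, 0.0417 and 0.11 under the first 3 against -1.03. For macrophage-like over mature neutrophil-like cells the median (-0.53) was -1.31, -1.19 and -1.35 under the first 3. Cybb in mature over specific granule-like cells (-2.01) was 0.33 with no filter on cells. This step was also smaller with 4000 variable genes, as given above, and with the stricter filter. Under the stricter filter the cluster named mature had Cybb at 879 CPM and those named specific granule-like 1604 and 1167. Ncf1 was at 320 CPM there against 435 and 417. Beside the Ltf levels given above, the cause was not tested. Leaving out each library in turn gave medians of -0.28 to -0.19 and of -0.60 to -0.51. Of 40 single-gene ratios between the WT libraries, 21 stayed within the counting interval.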
